A study of Mus musculus with 19 samples.

Results

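Nuclear genes of the mitochondrial oxidative phosphorylation system were followed across 4 genotypes of mouse embryonic stem cells. Members were taken by gene symbol: the Nduf a, b, c, s and v genes, Sdha to Sdhd, the Uqcr genes, Cox4 to Cox8, the Atp5 genes, Cyc1 and Cycs, with assembly factors (Ndufaf genes) and entries marked as pseudogenes left out. The rule found 85 of the 21685 genes in the table, and 82 of these were listed at 10 units or more (3.32 on the log2 scale) in at least 4 libraries and could be tested. By complex, 36 of the tested genes belong to complex I, 4 to complex II, 9 to complex III, 16 to complex IV and 16 to complex V, and Cycs encodes cytochrome c. Ndufa4 and Ndufa4l2 carry complex I names and were counted with complex IV. Atp5s and Cox7a2l entered by symbol, although they are known as a coupling or assembly factor and a supercomplex factor and not as core subunits.

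All cells were male C57BL/6 embryonic stem cells grown in serum with leukaemia inhibitory factor and sorted with magnetic beads for SSEA-1, a surface antigen of undifferentiated cells. In the genotype names the state of Trim71 precedes that of Lin28a. The groups were WT-WT (Trimfl/fl - Lin28afl/fl, n = 4), KO-WT (Trim-/- - Lin28afl/fl, n = 4), WT-KO (Trimfl/fl - Lin28a-/-, n = 5) and KO-KO (Trim-/- - Lin28a-/-, n = 5). TRIM71 is a ubiquitin ligase that also binds RNA, and LIN28A binds precursors of the let-7 microRNAs and holds back their maturation. The Trim71 mutation was induced in floxed cells with 500 nM 4-hydroxytamoxifen for 2 days, and at least 7 days of culture followed before harvest. The Cre line and the timing of the Lin28a deletion are not given in the sources used here. Each Lin28a state came from its own pair of clones (1 and E3 with Lin28a, 1-4 and C1 without), so Lin28a genotype and clone cannot be told apart. Libraries of different genotypes share harvest days, and nothing in the labels says whether libraries of 1 clone were separate cultures, so p-values measure the spread between these libraries.

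Oxidative phosphorylation passes electrons from NADH (through complex I) and succinate (through complex II) to complex III, cytochrome c and complex IV, where oxygen is reduced. Complexes I, III and IV pump protons across the inner mitochondrial membrane, and complex V, the ATP synthase, uses their return flow to make ATP. Most subunits are encoded in the nucleus and the rest in mitochondrial DNA, so the complexes are put together from the products of both genomes. Mouse embryonic stem cells respire and also ferment glucose at a high rate.

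Promoter windows are shown for 6 members because the results turn on these genes: Ndufb6, Cox6a1 and Cox8a were among the members that rose after loss of Trim71, Cox7a1 was the member that fell, and Ndufs6 and Ndufa12 were lower in every Lin28a-null than in every Lin28a-intact library. Each window runs from 250 bases before to 50 bases after an annotated transcription start and is written 5′ to 3′ along the gene (RefSeq, GRCm38.p6). The windows are chr4:40279372-40279671 on the minus strand for Ndufb6, chr5:115348909-115349208 (minus) for Cox6a1, chr19:7217567-7217866 (minus) for Cox8a, chr13:73328433-73328732 (minus) for Ndufs6, chr10:94198785-94199084 (plus) for Ndufa12 and chr7:30183921-30184220 (plus) for Cox7a1. Capitals mark exact matches, on either strand, to 5 motifs: GCGCAN followed directly by GCGC (NRF1, the nuclear respiratory factor), CCGGAAG (ETS factors, which include GABP), CCAAT (NF-Y), GGGCGGG (SP1) and AAGATG followed directly by GCGG (YY1); none of these motifs overlapped another in the windows shown.
Ndufb6: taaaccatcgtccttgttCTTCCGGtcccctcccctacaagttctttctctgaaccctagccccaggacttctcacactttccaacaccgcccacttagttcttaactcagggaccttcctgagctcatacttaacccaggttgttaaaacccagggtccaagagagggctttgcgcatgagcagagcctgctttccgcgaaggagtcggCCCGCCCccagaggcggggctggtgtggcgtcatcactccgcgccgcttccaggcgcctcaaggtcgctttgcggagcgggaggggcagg
Cox6a1: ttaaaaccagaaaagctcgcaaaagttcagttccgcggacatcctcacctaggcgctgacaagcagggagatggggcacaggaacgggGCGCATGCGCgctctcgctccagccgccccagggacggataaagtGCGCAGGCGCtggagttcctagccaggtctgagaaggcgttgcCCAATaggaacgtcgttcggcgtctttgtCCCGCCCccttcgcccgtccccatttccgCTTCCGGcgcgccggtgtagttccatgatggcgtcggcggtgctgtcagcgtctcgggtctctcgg
Cox8a: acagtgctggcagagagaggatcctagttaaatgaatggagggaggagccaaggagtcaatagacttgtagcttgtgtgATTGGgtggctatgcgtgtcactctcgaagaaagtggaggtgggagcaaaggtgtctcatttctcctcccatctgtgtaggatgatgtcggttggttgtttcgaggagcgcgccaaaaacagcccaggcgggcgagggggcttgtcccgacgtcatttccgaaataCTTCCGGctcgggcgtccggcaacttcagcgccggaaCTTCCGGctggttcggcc
Ndufs6: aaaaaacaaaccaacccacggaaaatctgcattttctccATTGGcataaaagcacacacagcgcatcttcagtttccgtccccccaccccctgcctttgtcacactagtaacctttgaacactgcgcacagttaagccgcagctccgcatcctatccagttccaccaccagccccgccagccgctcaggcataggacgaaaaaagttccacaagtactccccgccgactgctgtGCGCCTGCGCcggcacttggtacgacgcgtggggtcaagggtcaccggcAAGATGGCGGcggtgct
Ndufa12: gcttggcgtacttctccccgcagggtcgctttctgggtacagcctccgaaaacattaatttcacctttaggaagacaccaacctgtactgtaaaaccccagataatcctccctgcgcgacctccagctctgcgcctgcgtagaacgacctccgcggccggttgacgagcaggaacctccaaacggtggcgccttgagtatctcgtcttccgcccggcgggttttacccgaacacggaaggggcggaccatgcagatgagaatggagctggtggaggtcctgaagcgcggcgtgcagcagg
Cox7a1: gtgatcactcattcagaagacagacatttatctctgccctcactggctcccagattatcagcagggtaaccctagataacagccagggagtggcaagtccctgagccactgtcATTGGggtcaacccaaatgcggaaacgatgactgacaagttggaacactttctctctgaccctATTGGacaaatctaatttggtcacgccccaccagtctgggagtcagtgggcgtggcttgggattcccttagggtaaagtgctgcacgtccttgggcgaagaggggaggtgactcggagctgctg

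The Cox6a1 window held the NRF1 letters at 2 places and 1 match each for ETS, NF-Y and SP1. Ndufs6 had 1 NRF1, 1 NF-Y and 1 YY1 match, Cox8a had 2 ETS matches and 1 for NF-Y, Ndufb6 had 1 ETS and 1 SP1 match, Cox7a1 had 2 NF-Y matches, and Ndufa12 had none. RefSeq windows were found for 69 of the 85 members, 74 windows in all. The NRF1 letters stood in 24.3% of the 74 member windows, in 4.60% of all 32851 windows of the same length and in 9.47% of the windows of the other genes tested. For ETS the shares were 21.6%, 8.86% and 16.9%, and for YY1 6.76%, 0.852% and 1.87%. NF-Y (43.2%, 37.4% and 37.9%) was closer between these sets, and SP1 stood in 33.8% of member windows against 45.8% of the windows of other genes tested. These matches are descriptions of letters and say nothing of whether a factor is bound.

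Trim71 lay between 8.77 and 9.55 in the Trim71-null libraries and between 10.04 and 10.996 in the others, and Lin28a between 8.21 and 8.57 in the Lin28a-null libraries and between 9.74 and 10.26 in the others. Neither pair of ranges overlapped. Pou5f1 was at 12.55 or higher in every library, so the cells carried the defining stem cell marker of their label. The median over the 82 members, each gene taken relative to its own mean, ran from -0.09 to 0.00 in WT-WT, from 0.04 to 0.16 in KO-WT, from -0.07 to 0.02 in WT-KO and from -0.06 to 0.06 in KO-KO. KO-WT replicate 1 stood apart at 0.16, against 0.04 to 0.06 in the other KO-WT libraries. It was also the KO-WT library with no WT-WT library from its day.

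**Figure D1:**
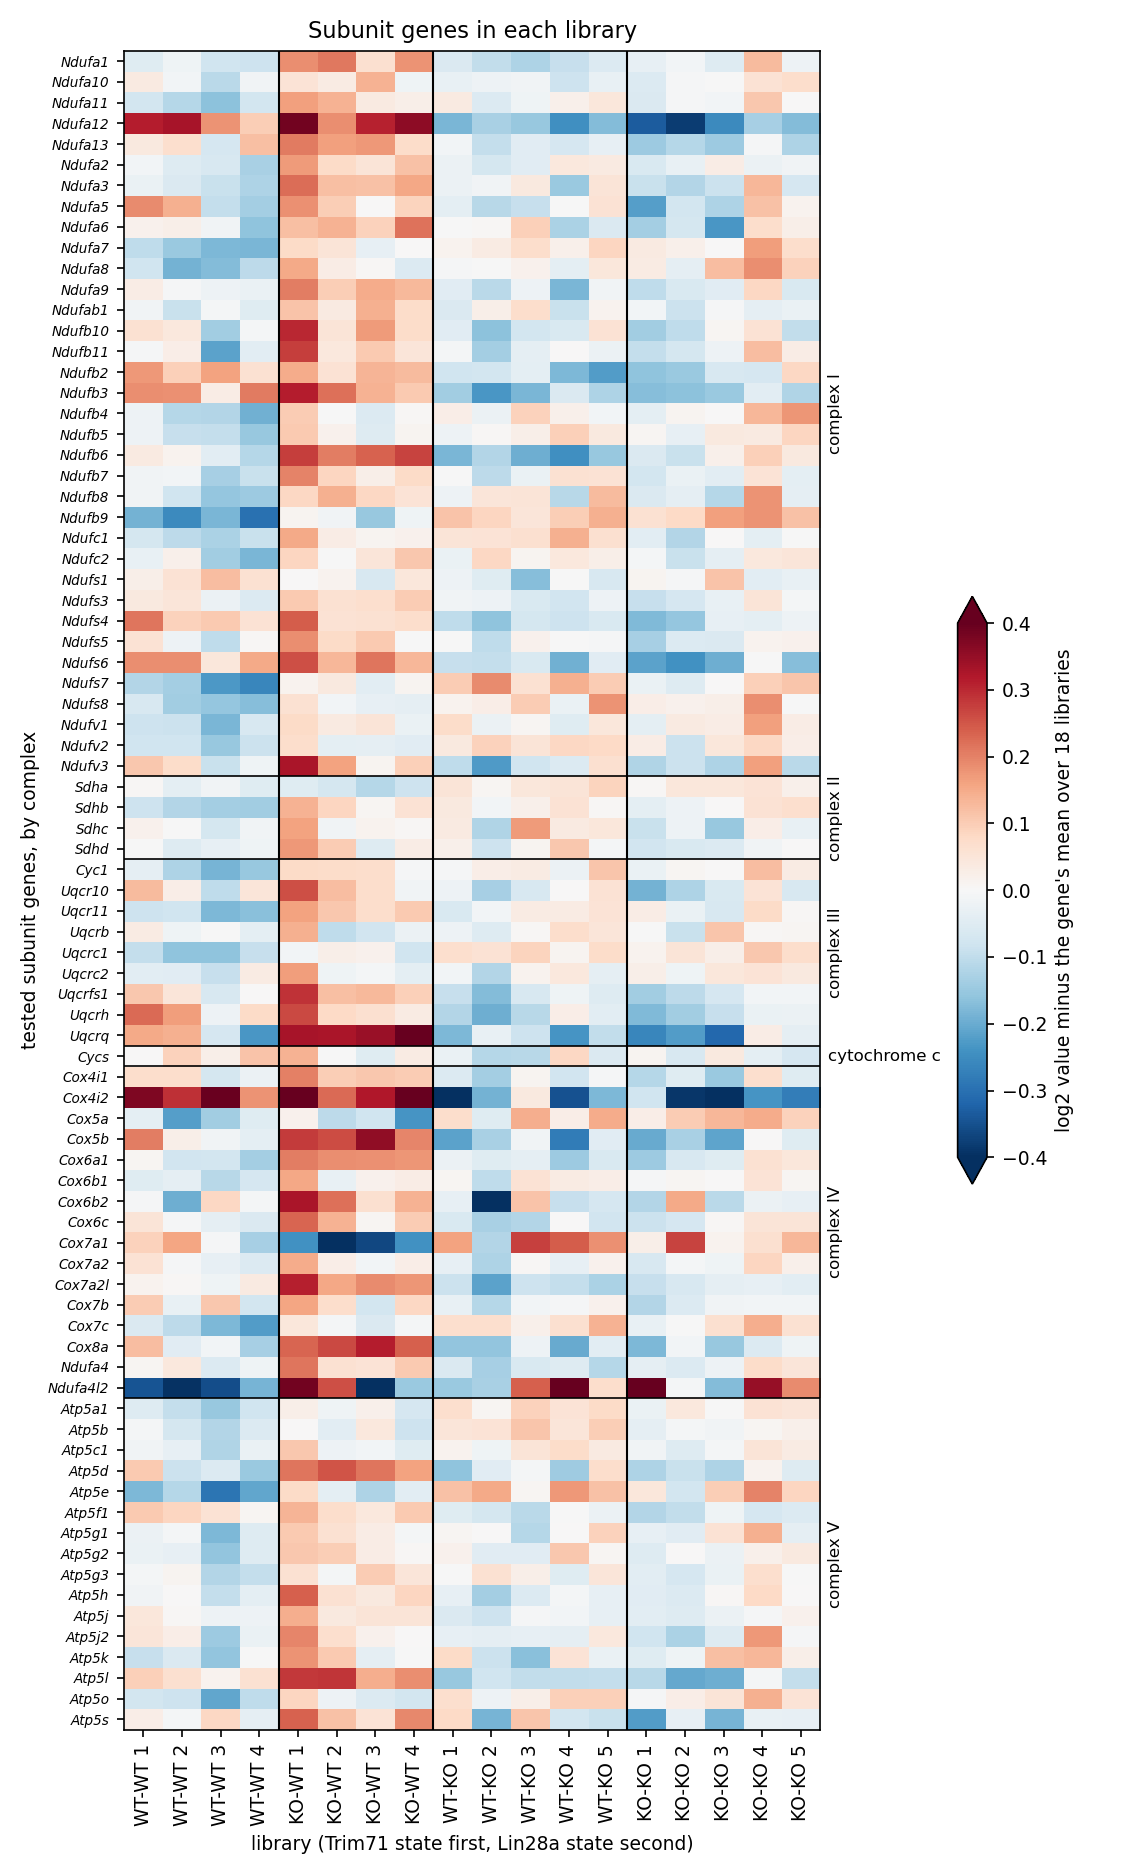
Each row is a tested gene and each column 1 of the 18 libraries; colour gives the deposited log2 value minus the gene's mean over all libraries, clipped at 0.4 in both directions. The 4 KO-WT columns are mostly red from complex I to complex V, with Cox7a1 as a blue row, while Ndufa12 divides the Lin28a-intact from the Lin28a-null columns. Cox4i2 divides them too, but it passed the filter on low values through Lin28a-intact libraries alone, so that is no independent result.

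**Figure D2:**
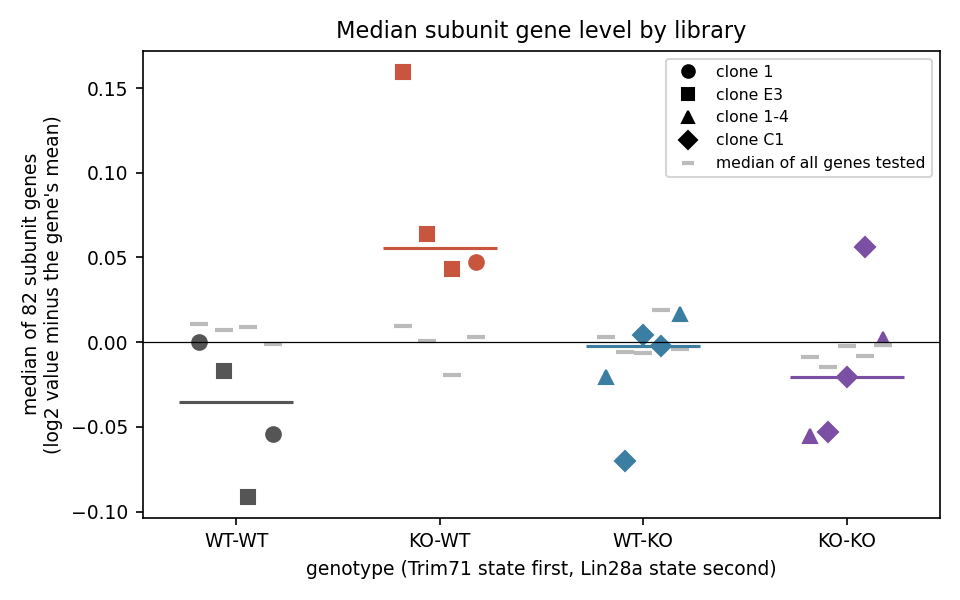
Points give, for each library, the median over 82 subunit genes of the log2 value minus the gene's mean; horizontal lines are medians of a genotype, symbols the clones, and grey dashes the same median over all 14988 genes tested. The KO-WT libraries lie between 0.04 and 0.16 and the WT-WT libraries between -0.09 and 0.00, with no overlap, and KO-WT replicate 1 is the highest of all.

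The first comparison asked what loss of Trim71 did to these genes while Lin28a was intact (KO-WT against WT-WT). Subunit genes of all 5 complexes were higher, each by a small amount: the median log2 difference over the 82 members was 0.12 (a ratio of 1.09), against -0.005 over all 14988 genes tested, and 74 of 82 members were above 0 where 48.9% of all genes were. In the test, 16 members rose, 19.5% of those tested, against 4.74% of all genes tested that rose. Only 1 member, Cox7a1, fell (1.22%, against 6.43% of all genes), and 11.2% of all genes were called in either direction. The levels of the 2 genotypes did not overlap, with KO-WT higher, for 39 members (47.6%, against 13% of all genes), and with KO-WT lower for 1 member (1.22%, against 15.3%). A level from a mixed population does not tell whether more cells expressed a gene or each cell held more RNA.

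Complex I, which oxidises NADH, gave 8 of the 16 genes that rose: the accessory subunits Ndufa1, Ndufa2, Ndufa3, Ndufa7, Ndufa11, Ndufb6 and Ndufb9, and Ndufs7 of the catalytic core. Its median difference was 0.13, with 33 of 36 genes above 0. Ndufb6, an accessory subunit of the membrane arm, was at 9.24, 9.21, 9.16 and 9.09 in WT-WT and at 9.47, 9.40, 9.44 and 9.47 in KO-WT. Every KO-WT library lay above every WT-WT library, and the log2 difference was 0.27 ± 0.05 (SE, adjusted p = 0.00663), the smallest p among the members. Ndufs7, a core subunit that binds an iron-sulphur cluster, was at 8.70, 8.68, 8.59 and 8.56 in WT-WT and at 8.83, 8.86, 8.78 and 8.83 in KO-WT. Its groups did not overlap either (0.19 ± 0.06, adjusted p = 0.0370). The other 6 core genes did not pass. Of these, Ndufv1 (0.14) and Ndufs8 (0.13) had differences above 0 and Ndufs1, the largest core subunit, had -0.07 ± 0.05.

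In complex II, the succinate dehydrogenase shared with the citric acid cycle, Sdhb rose. This iron-sulphur subunit was at 9.77, 9.74, 9.72 and 9.71 in WT-WT and at 9.99, 9.94, 9.86 and 9.91 in KO-WT, without overlap (0.19 ± 0.04, adjusted p = 0.0156). Sdha, the flavoprotein that binds succinate, did not pass (-0.05 ± 0.04), and neither did the membrane anchors Sdhc (0.06) and Sdhd (0.09).

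Complex III, which hands electrons from ubiquinol to cytochrome c, gave the largest rise of all members. Uqcrq, a small subunit, was at 10.25, 10.25, 10.04 and 9.87 in WT-WT and at 10.43, 10.43, 10.45 and 10.54 in KO-WT. The WT-WT libraries were spread over a wider range than the KO-WT libraries, and all lay below them (0.36 ± 0.09, a ratio of 1.29, adjusted p = 0.0243). Uqcr11, another small subunit, was at 9.14, 9.14, 9.04 and 9.05 against 9.38, 9.33, 9.29 and 9.32, with no overlap (0.24 ± 0.05, adjusted p = 0.00857). Cyc1, the haem-bearing cytochrome of the complex, rose as well (0.18 ± 0.05, adjusted p = 0.0327). Uqcrfs1, the Rieske iron-sulphur subunit, did not pass (0.14, adjusted p = 0.139). Cycs, the mobile carrier between complexes III and IV, had a difference of -0.03 (adjusted p = 0.793), and its groups overlapped.

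Complex IV, the cytochrome c oxidase, held called changes in both directions. Cox8a, a small membrane subunit of the form found in most tissues, was at 10.48, 10.31, 10.35 and 10.22 in WT-WT and at 10.59, 10.62, 10.67 and 10.60 in KO-WT. Cox6a1, likewise the widely expressed form of its subunit, was at 10.34, 10.25, 10.26 and 10.19 in WT-WT and at 10.53, 10.51, 10.51 and 10.51 in KO-WT. Both were higher in every KO-WT library, by 0.28 ± 0.06 (adjusted p = 0.0148) for Cox8a and 0.26 ± 0.05 (adjusted p = 0.00857) for Cox6a1. Cox7a2l, which takes part in joining complexes III and IV into supercomplexes, rose by 0.20 ± 0.05 (adjusted p = 0.0182). Cox7a1, the form of its subunit known from heart and skeletal muscle, went the other way: 6.45, 6.52, 6.35 and 6.22 in WT-WT against 6.11, 5.85, 5.99 and 6.11 in KO-WT. Its difference was -0.37 ± 0.11 (adjusted p = 0.0361), with every KO-WT library below every WT-WT library. Cox4i1, the regulatory subunit of the usual form of the enzyme, did not pass (0.12 ± 0.06, adjusted p = 0.187), although its groups did not overlap.

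All 16 genes of complex V were above 0, with a median of 0.11, and Atp5d was the one that rose. Atp5d, the delta subunit of the catalytic head's central stalk, was at 10.11, 9.92, 9.95 and 9.86 in WT-WT and at 10.22, 10.26, 10.22 and 10.17 in KO-WT (0.26 ± 0.06, adjusted p = 0.0224). No WT-WT library reached the lowest KO-WT library. The 3 genes of the membrane ring's c subunit, which encode the same mature protein, lay close together at 0.11 for Atp5g1, 0.13 for Atp5g2 and 0.10 for Atp5g3, and none passed.

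**Figure D3:**
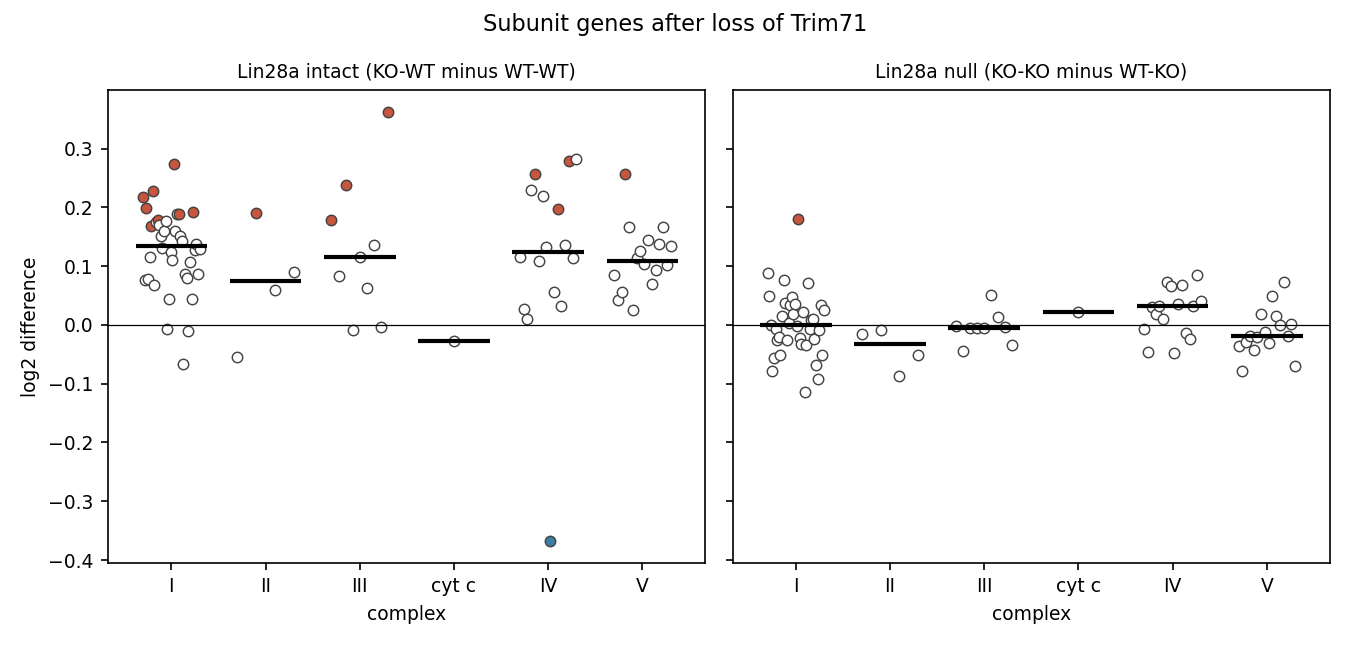
Each point is 1 subunit gene, placed by its complex, and the vertical axis gives its log2 difference after loss of Trim71, with Lin28a intact on the left and Lin28a null on the right; red and blue points passed the test as higher or lower, open points did not, and bars are medians of a complex. On the left 74 of 82 genes lie above 0, and on the right 38 of 82.

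With WT-WT and KO-WT libraries set against each other within days 3, 4 and 5, the median member difference was 0.10, 0.14 and 0.11, with 66, 68 and 67 of 82 members above 0. The calls themselves rested on the pooled spread of 4 genotypes. None of the 17 was called when the 2 genotypes were fitted alone (2 residual degrees of freedom), in clones E3 and C1 alone or in clones 1 and 1-4 alone. Few genes of any kind were called in those clones, 0.0667% of all genes in E3 and C1 and 2.3% in 1 and 1-4. Over the 3 days that hold all genotypes 5 members were called, and without the day block 42 were, where 28.1% of all genes were called. Leaving out 1 library changed the count to 8, 4 and 5 (WT-WT replicates 2, 3 and 4) or 10, 7, 9 and 11 (KO-WT replicates 1, 2, 3 and 4). Ndufb6, Cox6a1 and Uqcr11 were called in each of the 18 fits that left out 1 library. Uqcrq lost its call without WT-WT replicate 3 or 4 or KO-WT replicate 3 or 4 (0.25 to 0.43 over the 18 fits), Cox8a without WT-WT replicate 4 or KO-WT replicate 3, Sdhb without WT-WT replicate 3 or 4, and Cox7a2l without WT-WT replicate 3. Cox7a1 (-0.45 to -0.29), Atp5d, Cyc1 and Ndufs7 lost theirs in 7, 5, 6 and 9 of the fits. Without KO-WT replicate 1, the library that stood apart, the median difference was 0.09.

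Across the 14804 genes with a known transcript, the difference in this comparison moved with base composition: its rank correlation was 0.51 with GC content and -0.20 with length, and within the 82 members it was 0.44 and -0.31. Annotated member transcripts were short, with a median of 693.5 bases against 1998 for the other genes tested, at 52.4% and 51.1% GC. The value of a gene was the median over its annotated protein-coding transcripts and need not be that of the transcript expressed. Ndufs1, the largest core subunit, was thus given 651 bases and Ndufb2 2413, and the correction below rests on such values. After a smooth trend on GC content and length had been taken out of each library, the median member difference was 0.10, and 77 of 82 members were above 0. In that fit 13 members were called higher and 1 lower, where 3.87% and 3.65% of all genes were called. Ndufa1, Ndufb6, Sdhb, Uqcrq, Cox6a1, Cox7a1 and Cox7a2l were called with and without that step. Cox6a1 fell to 0.14 ± 0.04 (adjusted p = 0.0478), and Cox8a, Uqcr11, Atp5d, Cyc1, Ndufs7 and 5 further members were no longer called. Ndufa9, Ndufab1, Ndufc1, Ndufv2, Cox7c, Ndufa4 and Atp5l were called with that step and not without it.

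Markers of other cells were summed on the linear scale of the table. The 9 stem cell markers, 8 of them tested, came to between 38267 and 40324 units in WT-WT and between 40593 and 43712 in KO-WT, without overlap. The 7 neural markers measured, 5 of them tested, were lower in sum in KO-WT (434 to 487 units against 490 to 621), with Zic1 at most 0.63 in any library. Sums overlapped between the 2 genotypes for trophectoderm and epithelial markers (7 tested of 9, Elf5 at most 1.02). They also overlapped for primitive endoderm markers (8 of 10, Foxa2 at most 2.03) and fibroblast markers (7 of 7 measured). Gene by gene, however, all 8 primitive endoderm markers tested had log2 differences above 0 (median 0.23), and 1 was called higher. Of the 7 fibroblast markers, 6 were below 0 and 1 above (median -0.10, lowest -0.57), and 1 was called lower. The trophectoderm and epithelial markers were split, with 4 above 0, 3 below and none called. Of the stem cell markers tested, 6 were above 0 and 2 below, with 1 called higher. Of the neural markers tested, 1 was above 0 and 4 below, with none called. The part of these differences in the subunit genes was not tested.

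In Lin28a-null cells, the subunit genes lay at similar levels with and without Trim71 (KO-KO against WT-KO). The median member difference was -0.004, the median over all genes was -0.009, and 38 of 82 members were above 0 (46.6% of all genes). Ndufb6 was the 1 member that rose, 1.22% of the members against 4.26% of all genes tested, none fell (4.12% of all genes did), and 8.38% of all genes were called in either direction. The share of members called was below that of all genes, and 2 of 82 members passed an unadjusted p of 0.05, as did 3413 of the 14988 genes. Ndufb6 was at 9.02, 9.08, 9.004, 8.95 and 9.05 in WT-KO and at 9.14, 9.11, 9.22, 9.29 and 9.24 in KO-KO. The groups did not overlap, and the difference was 0.18 ± 0.05 (adjusted p = 0.0245). Leaving out WT-KO replicate 1 or 4 or KO-KO replicate 3, 4 or 5 ended this call.

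The 16 members that rose with Lin28a intact were spread around 0 here, 8 above and 8 below, from -0.09 to 0.18 with a median of -0.0004; these 2 comparisons share no library. Uqcrq was at 9.93, 10.07, 10.02, 9.87 and 10.01 in WT-KO and at 9.84, 9.88, 9.79, 10.13 and 10.07 in KO-KO, with overlap. Cox8a was at 10.20, 10.20, 10.34, 10.15 and 10.31 against 10.18, 10.34, 10.20, 10.30 and 10.34, and Cox7a1 at 6.52, 6.24, 6.63, 6.60 and 6.54 against 6.38, 6.63, 6.37, 6.42 and 6.49. In all 3 genes the ranges overlapped. By same-day pair the median over the members was -0.05, 0.02, -0.02, 0.08 and -0.01 on days 1 to 5, so its sign differed between days.

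Whether the 2 effects of Trim71 loss differed was tested by the interaction term. No member was called, and in all 3 genes of 14988 were (0.02%). An unadjusted p under 0.05 was reached by 28 of 82 members (2256 of 14988 genes), 74 of 82 members were below 0, and the median was -0.12 against 0.004 over all genes. Ndufs7 had the smallest adjusted p (-0.28 ± 0.07, adjusted p = 0.182), and Uqcrq had the largest difference (-0.40 ± 0.12, adjusted p = 0.221). Cox7a1 had the opposite sign (0.32 ± 0.14, adjusted p = 0.304). A difference between the 2 effects was therefore not shown for any single member with day in the fit. Without the day block 9 members and 4.49% of all genes were called, with the same differences but 14 residual degrees of freedom in place of 10. Day effects had been removed before deposit, so that fit counts too many, and its 9 calls are no evidence of a difference. The interaction, too, moved with GC content (rank correlation -0.50 over 14804 genes), and after the correction its median was -0.08 with 71 of 82 members below 0.

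Cells without Lin28a were next compared with their Lin28a-intact counterparts, first in cells that kept Trim71 (WT-KO against WT-WT). Here the members moved in both directions: 18 rose and 13 fell, 22.0% and 15.9% of the members against 20.3% and 22% of all genes tested, in a comparison in which 42.4% of all genes were called. One of the 13, Cox4i2, passed the filter on low values through its Lin28a-intact libraries alone, where it is high, so its fall is no independent result; without it 12 of 81 fell. The median member difference was 0.02, and it was 0.003 without WT-KO replicate 3 and 0.04 without WT-WT replicate 1. The WT-WT libraries also served as the reference for the loss of Trim71. In the NADH-oxidising core of complex I 4 of 7 genes rose and 1 fell, and of the 29 accessory subunits 4 rose and 6 fell (20.7%, against 22% of all genes); the difference between core and accessory genes was not tested. With the GC and length correction the split was 25 higher and 11 lower, where 26.2% and 19.2% of all genes were called. The member median was then 0.03, as was that of all genes. After scaling on the 75th percentile the split was 20 and 8, where 22.3% and 19.9% of all genes were called.

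Ndufb9, an accessory subunit of the complex I membrane arm, rose most among those called. It was at 7.96, 7.89, 7.97 and 7.85 in WT-WT, at 8.16, 8.13, 7.998 and 8.13 in KO-WT, at 8.26, 8.23, 8.20, 8.25 and 8.29 in WT-KO and at 8.21, 8.23, 8.31, 8.33 and 8.27 in KO-KO. Every Lin28a-null library was above every Lin28a-intact library, and the difference with Trim71 intact was 0.33 ± 0.05 (adjusted p = 1.04e-04). Atp5e, the epsilon subunit of the ATP synthase stalk, was at 9.08, 9.14, 8.96 and 9.05 in WT-WT and at 9.37, 9.40, 9.26, 9.43 and 9.37 in WT-KO (0.31 ± 0.06, adjusted p = 7.20e-04). Ndufs7 was at 8.92, 9.01, 8.88, 8.96 and 8.92 in WT-KO, above all WT-WT libraries (0.30 ± 0.05, adjusted p = 1.97e-04). The core subunits Ndufs8 (0.19 ± 0.06) and Ndufv2 (0.17) rose too, as did Cox7c (0.21 ± 0.05) of complex IV, the accessory subunit Ndufa7 (0.20 ± 0.04), Uqcrc1 (0.19 ± 0.04) and Cyc1 (0.15 ± 0.05) of complex III and Sdhb (0.14 ± 0.04). Both large subunits of the catalytic head of ATP synthase, Atp5a1 (0.15) and Atp5b (0.14), were among those that rose.

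Among the members that fell, Ndufa12, an accessory subunit of the complex I matrix arm, had the largest difference of the well expressed genes. It was at 8.60, 8.62, 8.46 and 8.39 in WT-WT, at 8.67, 8.47, 8.59 and 8.64 in KO-WT, at 8.10, 8.16, 8.13, 8.04 and 8.11 in WT-KO and at 7.95, 7.90, 8.03, 8.15 and 8.11 in KO-KO. The 8 Lin28a-intact libraries were all above the 10 Lin28a-null libraries, and the difference was -0.41 ± 0.07 with Trim71 intact (adjusted p = 1.78e-04). Ndufs6, which binds zinc in the matrix arm, was at 9.26, 9.26, 9.12 and 9.23 in WT-WT and at 8.98, 8.98, 9.02, 8.88 and 9.03 in WT-KO (-0.24 ± 0.06, adjusted p = 0.00332). Ndufb3 (-0.30 ± 0.06, adjusted p = 8.11e-04), Ndufb2 (-0.24 ± 0.07, adjusted p = 0.0143) and Ndufs4 (-0.21 ± 0.06, adjusted p = 0.00606) also fell, with groups that did not overlap. Ndufs1 was the core gene called lower (-0.13, adjusted p = 0.0418), and it was not called with the GC and length correction (-0.11, adjusted p = 0.0839) or after scaling on the 75th percentile. With the correction Ndufs4 was not called either (-0.08, adjusted p = 0.263), and Ndufb3 was at -0.19 (adjusted p = 0.0202) and Ndufv2 at 0.29.

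**Figure D4:**
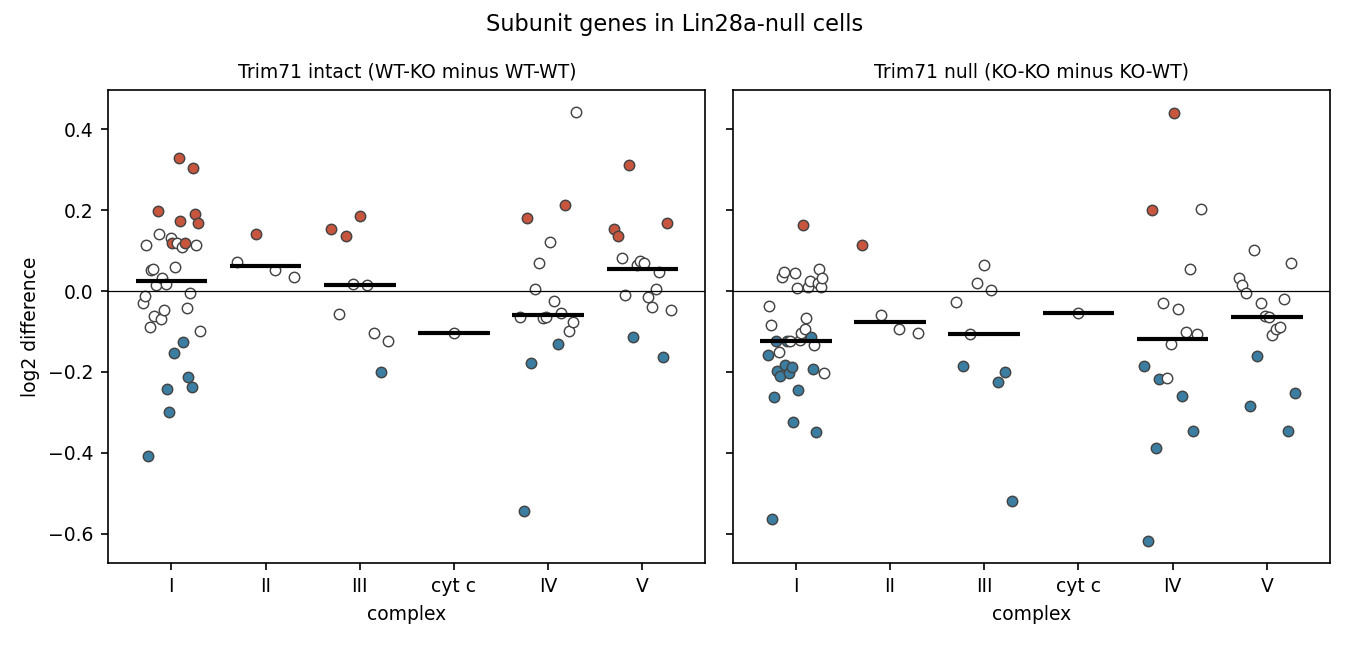
Points, colours and bars are as in the plot of Trim71 loss, for Lin28a-null against Lin28a-intact cells with Trim71 intact on the left and Trim71 null on the right. On the left 18 genes passed as higher and 13 as lower around a median of 0.02, and on the right 4 and 29 around a median of -0.10. The lower genes on both sides include Cox4i2, which passed the filter on low values through Lin28a-intact libraries alone.

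In Trim71-null cells the balance was tilted downwards (KO-KO against KO-WT): 29 members fell and 4 rose, 35.4% and 4.88% against 22% and 20.8% of all genes tested, with 42.8% of all genes called. Without Cox4i2, 28 of 81 fell. The median member difference was -0.10, against -0.001 over all genes. Without KO-WT replicate 1, the library that stood apart, the median was -0.05, and 18 members fell and 4 rose. Those that fell included 14 of 29 accessory and 1 of 7 core genes of complex I, 4 of 9 genes of complex III, 6 of 16 of complex IV (Cox4i2 among them) and 4 of 16 of complex V, and none of complex II. After the GC and length correction the counts were 21 lower and 12 higher, where 20% and 25.6% of all genes were called. The member median was then -0.04, against 0.02 over all genes. KO-WT enters both this comparison and the first one, with opposite signs, so the genes that were high in KO-WT are placed low here by the shared libraries.

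Ndufa12 (-0.56 ± 0.07, adjusted p = 7.48e-06) and Ndufs6 (-0.35 ± 0.06, adjusted p = 1.53e-04) fell in Trim71-null cells as well. Uqcrq, with 10.43 to 10.54 in KO-WT and 9.79 to 10.13 in KO-KO, fell by 0.52 on the log2 scale (SE 0.09, adjusted p = 1.70e-04). Atp5l, a subunit of the ATP synthase membrane part, was at 9.20, 9.20, 9.06 and 9.10 in KO-WT and at 8.80, 8.71, 8.72, 8.91 and 8.82 in KO-KO (-0.35 ± 0.05, adjusted p = 4.98e-05). Cox5b, a zinc-binding subunit of complex IV, was at 10.28, 10.26, 10.35 and 10.19 in KO-WT and at 9.80, 9.87, 9.79, 10.0001 and 9.95 in KO-KO (-0.39 ± 0.07, adjusted p = 3.25e-04). None of these genes overlapped between the genotypes. Cox8a (-0.35 ± 0.06), Atp5d (-0.29 ± 0.06), Cox7a2l (-0.26 ± 0.04), Uqcrfs1 (-0.22 ± 0.05), Cox6a1 (-0.22 ± 0.05) and Cox4i1 (-0.19 ± 0.05) fell too; with the GC and length correction Atp5d (-0.17), Cox6a1 (-0.14) and Cox4i1 (-0.11) were still called. Cox7a1 rose by 0.44 ± 0.10 (adjusted p = 0.00178), Cox5a, a matrix-facing subunit of complex IV, by 0.20 ± 0.06 (adjusted p = 0.0126), Ndufb9 by 0.16 ± 0.05 (adjusted p = 0.0182) and Sdha by 0.11 ± 0.03 (adjusted p = 0.0145).

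The comparisons of Lin28a-null with Lin28a-intact cells in the 2 Trim71 states use separate libraries of the same clones. Leaving out Cox4i2, 30 members were called with Trim71 intact and 32 with Trim71 null, and 13 were called in both (43.3% and 40.6% of each list). Over all genes tested the shares were 66.8% and 66.1%. Of the members, 16% were called in both, against 28.3% of all genes. Each of the 13 had the same sign in both states, as had 99.7% of all genes called in both. Ndufa12, Ndufb3, Ndufb6, Ndufs6, Uqcrh, Cox5b and Atp5l were lower and Ndufb9 and Cox5a higher in both states, with and without the GC and length correction. After scaling on the 75th percentile Ndufb6 and Cox5b were not called with Trim71 intact. Ndufb2, Ndufs4, Cox7a2l and Atp5f1 were lower in both without the correction, and with it each lost its call in at least 1 state. Atp5f1 was then at 0.02 with Trim71 intact (adjusted p = 0.744).

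**Figure D5:**
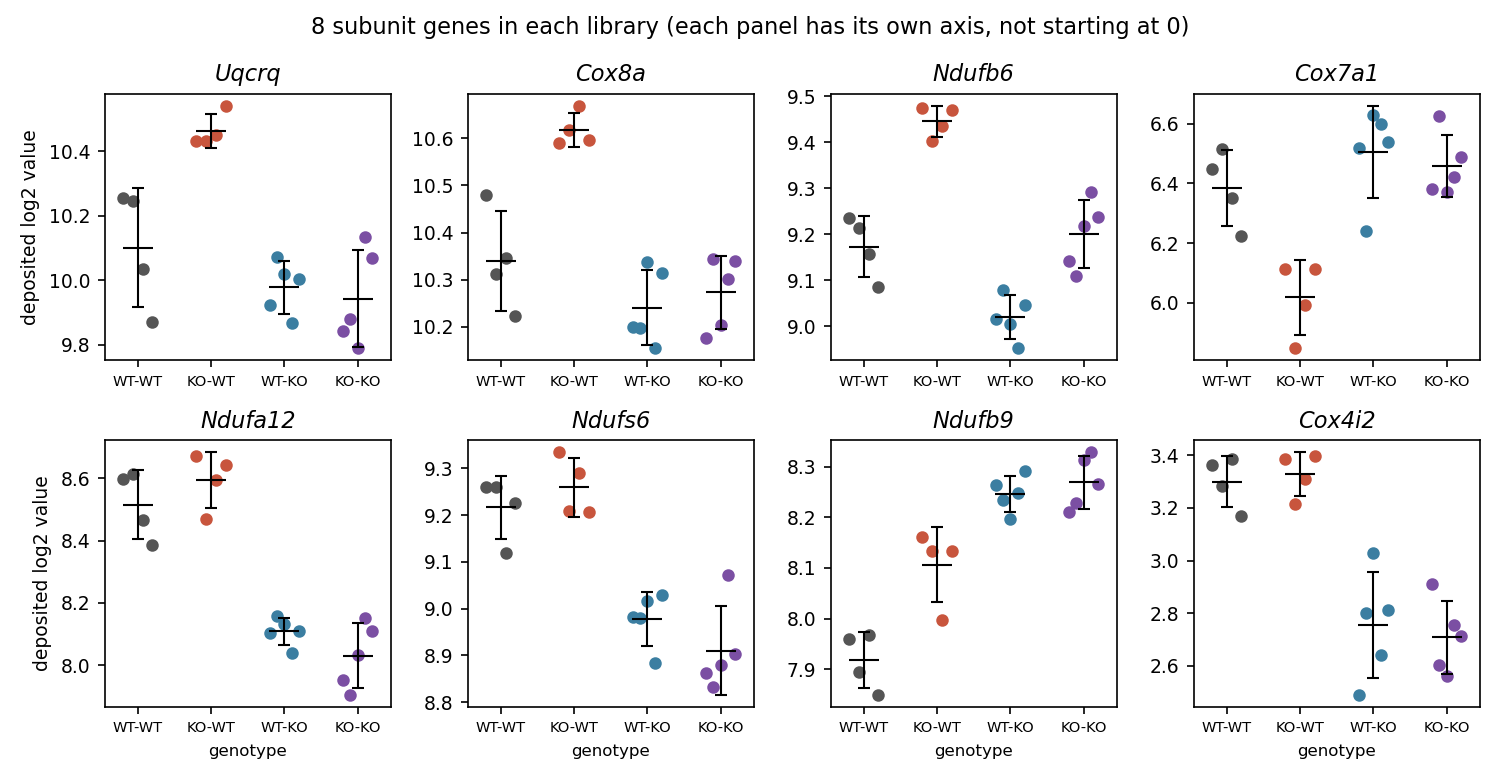
Points are the deposited log2 values of 8 genes in each of the 18 libraries, by genotype; black bars give the mean and 1 SD, and each panel has its own vertical axis that does not start at 0. Uqcrq and Cox8a are highest and Cox7a1 lowest in KO-WT, Ndufa12 and Ndufs6 are lower in every Lin28a-null library than in every Lin28a-intact library, and Ndufb9 is higher. Cox4i2 is lower as well, but it passed the filter on low values through Lin28a-intact libraries alone and is shown as a description.

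Markers of other cells differed widely between the Lin28a states. Trophectoderm and epithelial markers summed to between 4633 and 6198 units in Lin28a-intact and between 1007 and 1358 in Lin28a-null libraries, and primitive endoderm markers to between 8844 and 11071 and between 3779 and 5217. Krt8, a keratin of simple epithelia, averaged 10.96 in WT-WT and 6.74 in WT-KO. Of the 7 trophectoderm and epithelial markers tested, 5 were called lower in each Trim71 state. Eomes (5.30 in WT-WT, 5.43 in WT-KO) and Tfap2c (9.69, 9.82) were not lower with Trim71 intact. The stem cell markers were higher in sum without Lin28a (47350 to 52805 units against 38267 to 43712), and so were the fibroblast and neural lists. Gene by gene, 6 of the 8 stem cell markers tested were called higher and none lower with Trim71 intact. With Trim71 null 3 were called higher and 1 lower, and Utf1 (11.37 in KO-WT, 11.08 in KO-KO) and Sox2 (11.62, 11.55) were below 0. The fibroblast sum was carried by Fn1 (0.44 ± 0.06 with Trim71 intact and 0.58 ± 0.06 with Trim71 null), while 5 of the 7 fibroblast markers, Acta2, Tagln, Col1a1, Col1a2 and Vim, fell in both states. Of the 5 neural markers tested, 3 rose in each state and Nes fell with Trim71 intact (-0.48 ± 0.12, adjusted p = 0.00485). The part of these differences in the subunit genes was not tested.

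Leaving out 1 library ended a call for Ndufb2 (WT-WT replicate 1 or WT-KO replicate 5) and Cyc1 (WT-WT replicate 3 or WT-KO replicate 5) with Trim71 intact. With Trim71 null it did so for Cox5a (KO-WT replicate 4), Sdha (KO-WT replicate 3) and Ndufb9 (KO-WT replicate 3 or KO-KO replicate 3 or 4). The number of members called without Lin28a was smaller within either pair of clones, each a Lin28a-intact clone set against a Lin28a-null clone. With Trim71 intact it was 5 in clones E3 and C1 and 16 in clones 1 and 1-4, and with Trim71 null it was 15 and 6. The share of all genes called was smaller too, at 15.5% and 29.2% with Trim71 intact and 24% and 15.3% with Trim71 null. With Trim71 null, the same-day member medians were -0.20, -0.09, 0.02 and -0.05 on days 2, 3, 4 and 5, and over the 3 days with all genotypes 5 members rose and 14 fell around a median of -0.04.

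Cells that lacked both genes were last set against cells with both (KO-KO against WT-WT). Of the members, 19 rose and 10 fell, 23.2% and 12.2% against 21% and 24.6% of all genes tested, and 45.6% of all genes were called. Without Cox4i2, 9 of 81 fell. The median member difference was 0.03, and it was 0.005 without KO-KO replicate 4 and 0.06 without WT-WT replicate 1. In the complex I core 5 genes rose, among them Ndufs7 (0.21 ± 0.05) and Ndufs8 (0.18), and none fell. Ndufb9 (0.35 ± 0.05), Atp5e (0.27 ± 0.06), Ndufa8 (0.22 ± 0.06), Ndufa7 (0.21 ± 0.04) and Cox5a (0.21 ± 0.06) led the others that rose. Apart from Cox4i2, Ndufa12 (-0.49 ± 0.07), Ndufs6 (-0.31 ± 0.06), Ndufb3 (-0.28 ± 0.06), Uqcrh (-0.20 ± 0.07) and Ndufs4 (-0.20 ± 0.06) led those that fell. With the GC and length correction 27 rose and 7 fell, where 26.6% and 19.9% of all genes did. Ndufb3 (-0.14, adjusted p = 0.0757) and Ndufs4 (-0.04, adjusted p = 0.610) were then not called. Uqcrh was not called without WT-WT replicate 1 or 2 or KO-KO replicate 1, Cox5a without WT-WT replicate 2, and Ndufs4 without WT-WT replicate 1. The comparison shares WT-WT with 2 of those above and KO-KO with 2, so it adds no independent support to them.

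Levels of paralogues were compared per kilobase of transcript, on the log2 scale. The length of a gene was the median over its annotated protein-coding transcripts and need not be that of the transcript expressed. In WT-WT, Cox4i1 was at 11.97 and Cox4i2, a form known from lung and from low oxygen, at 3.75. Cox6b1 was at 11.05 and Cox6b2, known as a testis form, at 10.18. Cox7a2 was at 10.76, Cox7a2l at 9.55 and Cox7a1 at 7.57, and Ndufa4 was at 11.22 against 3.92 for Ndufa4l2. Of these pairs of complex IV genes, Cox6b2 was the one tissue-restricted form within 1 log2 unit of its widely expressed partner. Cyct, the testis cytochrome c and no member, was at 9.97 over a transcript of 655 bases, above Cycs at 7.69 over 3123 bases. The highest member per kilobase was Atp5b at 12.93, and after Cox4i2 and Ndufa4l2 the lowest was Ndufb2 at 3.96. Among the genes of the c subunit, Atp5g3 (11.33) was above Atp5g2 (10.39) and Atp5g1 (9.30). The order of the last 2 rests on the lengths used, 683 bases for Atp5g2 and 2675.5 for Atp5g1. Before division by length Atp5g1 (10.72) was above Atp5g2 (9.84) in WT-WT, and Atp5g3 was at 10.85.

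Cox4i2 stood just inside the filter on low values. It was at 3.36, 3.28, 3.39 and 3.17 in WT-WT, at 3.39, 3.22, 3.31 and 3.40 in KO-WT, at 2.49, 2.80, 3.03, 2.64 and 2.81 in WT-KO and at 2.91, 2.60, 2.56, 2.75 and 2.71 in KO-KO. It passed through its Lin28a-intact libraries alone, where it is high, so its log2 differences of -0.54 ± 0.11 and -0.62 ± 0.11 without Lin28a, and of -0.59 ± 0.11 without both genes, are given as a description. Just outside the filter was Cox7b2, which reached 2.60 at most, followed by Cox8c at 0.57 and Cox6a2 at 0.01. Ndufa4l2, a form induced by low oxygen in other cells, ran from 3.75 to 3.96 in WT-WT, from 3.496 to 4.53 in KO-WT, from 4.00 to 4.73 in WT-KO and from 3.97 to 4.61 in KO-KO. It was not called in any comparison of the values as deposited with day in the fit. For loss of both it was called after either scaling, without the day block and in clones 1 and 1-4 alone, and for Lin28a loss with Trim71 intact without the day block.

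Related gene lists were read beside the members. None of the 13 subunits encoded in mitochondrial DNA was in the table, and they were not analysed here. Of 47 assembly factors, 2 rose after loss of Trim71 with Lin28a intact (4.26%, against 4.74% of all genes). None fell (6.43% of all genes did), and the median was 0.05. The 2 that rose were Ndufaf8 (0.33 ± 0.10, adjusted p = 0.0404), a complex I factor, and Cox14 (0.23 ± 0.07, adjusted p = 0.0460), a complex IV factor. Without Lin28a, 2 of the 47 were lower after loss of Trim71 (4.26%, against 4.12% of all genes). The 2 were Cox11 (-0.26 ± 0.05, adjusted p = 0.00731), which inserts copper, and Ndufaf8 (-0.32 ± 0.08, adjusted p = 0.0245). Ndufaf8 thus differed in sign between the 2 Lin28a states, but none of the 47 was called in the interaction. In Lin28a-null cells 7 assembly factors were higher and 5 lower with Trim71 intact (14.9% and 10.6%, against 20.3% and 22% of all genes), and 5 were higher and 12 lower with Trim71 null (10.6% and 25.5%, against 20.8% and 22%).

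Among 16 enzymes of the citric acid cycle and pyruvate dehydrogenase, none rose after loss of Trim71 with Lin28a intact, where 4.74% of all genes did; 10 were above 0 and the median was 0.03. The 2 that fell were Sucla2 of succinyl-CoA ligase (-0.30 ± 0.07, adjusted p = 0.0123) and Dld, the shared dihydrolipoamide dehydrogenase (-0.25 ± 0.07, adjusted p = 0.0411). Without Lin28a none of the 16 was called, where 8.38% of all genes were. An unadjusted p of 0.05 was passed by 2 of the 16, and by 3413 of the 14988 genes. Among 18 genes for transcription and upkeep of mitochondria, Esrra, the oestrogen-related receptor alpha, was the 1 called after loss of Trim71 with Lin28a intact (0.22 ± 0.07, adjusted p = 0.0452). That is 5.56% of the list, against 4.74% of all genes called higher. In Lin28a-null cells 5 of the 18 were higher and 2 lower with Trim71 intact (27.8% and 11.1%, against 20.3% and 22% of all genes). With Trim71 null 5 were higher and 3 lower (27.8% and 16.7%, against 20.8% and 22%). Esrrb, a nuclear receptor that is also on the stem cell marker list, had the largest difference (0.63 ± 0.04 and 0.60 ± 0.04). The coactivators Ppargc1b (0.55 ± 0.08 with Trim71 intact and 0.59 ± 0.08 with Trim71 null) and Pprc1 (0.33 ± 0.04 and 0.32 ± 0.04) and the mitochondrial RNA polymerase Polrmt (0.33 ± 0.05 and 0.17 ± 0.05) were higher. Gabpb1 (-0.22 ± 0.05 and -0.19 ± 0.05) and Yy1 (-0.18 ± 0.05 and -0.17 ± 0.05) were lower. Of 11 carriers, inhibitors and uncouplers, Higd2a, which helps assemble complex IV, was the 1 that rose after loss of Trim71 with Lin28a intact (0.29 ± 0.07, adjusted p = 0.0178). Chchd4, an import oxidase of the intermembrane space, was the 1 that fell after that loss without Lin28a (-0.20 ± 0.06, adjusted p = 0.0326). Each is 9.09% of the list, against 4.74% of all genes higher with Lin28a intact and 4.12% lower without it. Of 22 genes of mitochondrial protein import, 1 rose and 1 fell after loss of Trim71 with Lin28a intact (4.55% each, against 4.74% and 6.43% of all genes). In Lin28a-null cells, 4 were lower and none higher with Trim71 intact (18.2% lower), and 12 were lower and 1 higher with Trim71 null (54.5% lower), against 22% of all genes lower in each.

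Many of these genes have processed copies in the genome that resemble them closely, and how reads that fit several places were counted is not given in the sources used here. The levels of such genes are uncertain to that degree.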

How the data were processed

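mRNA was measured in 19 libraries, and 18 were used: KO-WT replicate 5 held nothing but the average of its 4 sister libraries (largest gap 1.5e-08) and was left out. The authors deposited 1 table of normalised expression values, recorded here as a score and read as log2, since the values run from -0.71 to 16.30 and base 2 was inferred. CASAVA 1.8, STAR and DESeq2 are named, without roles, per the submitters' processing notes; the build and annotation are not given in the sources used here. Day effects had been removed before deposit (largest day term 1.7e-08), so a check of the pairing of same-day libraries by correlation is void. Day, which the labels give, was kept in the fit. A fit without day leaves the differences unchanged but counts degrees of freedom already used up, so its p-values are too small. Depth is unknown.

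Genes at 10 units or more in at least 4 libraries were tested (14988 of 21685, 69.1%) with limma 3.58.1 (R 4.3.3; eBayes with a trend after lmFit and contrasts.fit), in a model of genotype and day with 10 residual degrees of freedom. A gene was called at a Benjamini-Hochberg adjusted p under 0.05 over all genes tested. Errors of differences are standard errors of this fit. The fit was tested on simulated data. Transcript GC content and length came from GENCODE M21, as medians over the protein-coding transcripts of a gene, and promoter windows from RefSeq. Alternatives changed the day block, filter, pseudocount, scaling, libraries, clones and GC and length.

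Named members were, per comparison and direction, up to 6 called members with the largest difference, the member with the smallest adjusted p where none was called, and fixed core genes, paralogues and lists; the other members named were chosen after their values were seen. Members and lists were chosen with earlier results of these data known. Values of 1 member are not reported here.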

Additional observations from a re-analysis of the deposited data

Results flagged for a closer look

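In 8 of 128 checks of a named member within a genotype, 1 library lay far from the others relative to the group's range; about 5% of such checks are met by chance. Cox7a1 was at 6.24 in WT-KO replicate 2 (others 6.52 to 6.63), Ndufs8 at 9.001 in KO-KO replicate 4 (8.81 to 8.84) and Ndufb3 at 8.35 in WT-WT replicate 3 (8.50 to 8.53). Atp5l was at 8.76 in WT-KO replicate 1 (8.82 to 8.83) and Cyc1 at 10.77 in KO-WT replicate 4 (10.85 to 10.86). KO-WT replicate 1 was the high library for Ndufs4 at 9.10 (8.92 to 8.93), Cox4i1 at 11.73 (11.63 to 11.64) and Uqcrfs1 at 9.75 (9.55 to 9.58).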

How the results depend on the processing

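Depth is unknown, so small differences are limited by the spread between libraries and not by a counting error that could be stated. For loss of Trim71 with Lin28a intact, 17 members were called. The count was 42 without the replicate block (day), where 28.1% of all genes were called. It was 0 in clones E3 and C1 alone (0.0667% of all genes) and 0 in clones 1 and 1-4 alone (2.3%). It was 5 over the 3 days with all genotypes and 0 with the compared genotypes alone, and leaving out 1 library gave 4 to 21. For loss of Trim71 without Lin28a the 1 call became 2 without the replicate block, where 17.5% of all genes were called. It became 0 in either pair of clones (1.02% of all genes in E3 and C1, 1.91% in 1 and 1-4). It became 0 over the 3 days and 0 with the compared genotypes alone, and 0 to 1 on leaving out 1 library. For Lin28a loss, clones E3 and C1 alone gave 5 (Trim71 intact, 31 in the full fit) and 15 (Trim71 null, 33), and clones 1 and 1-4 gave 16 and 6. All genes were called there at 15.5% and 24% in E3 and C1, and at 29.2% and 15.3% in 1 and 1-4. With Trim71 null, the 3 days gave 19 calls and a median of -0.0397, and the GC and length correction a median of -0.0417. For loss of both (29), the clones gave 5 and 14 (17.8% and 31.5% of all genes) and the compared genotypes alone 17. For the interaction (0), the count was 9 without the replicate block, where 4.49% of all genes were called. Without the replicate block the differences were unchanged and the residual degrees of freedom rose from 10 to 14. Day effects had been removed from these values before deposit, so the larger counts of that fit come from degrees of freedom counted in excess. The cause of the other changes was not tested, beyond the fewer libraries in some fits. Ndufs1, not called after loss of Trim71 with Lin28a intact, turned from -0.07 to 0.0134 in clones 1 and 1-4 alone. Of the 61 differences of named members, 34 calls were lost in clones E3 and C1 alone, 30 in clones 1 and 1-4 alone, 13 with the compared genotypes alone, 10 over the 3 days, 8 with the GC and length correction and 1 with no filter on low values. Scaling, the pseudocount and the filters kept each of these counts within 1.5 times.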
